A study of Mus musculus with 13 samples.

Results

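The genes described here are 41 type I interferon-stimulated genes of the mouse rectum. They were listed by name, and each was read from the transcript cluster annotated to that gene alone, taking the cluster with the highest mean over all 13 arrays where there was a choice. A transcript cluster is the set of probes that an array holds for a gene. Of the 41 genes, 39 were measured among the 19938 genes of the series. The only cluster of Isg15 is also annotated to Gm9706, and no annotated cluster was found for Ifi44, so neither has a value here. None of the 39 had more than 1 cluster of its own, so the levels decided no choice of cluster. The list itself was drawn up with earlier results of these arrays known, and the tests between the groups are therefore no independent evidence for its direction.

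The arrays compared 5 adenocarcinomas, 4 pieces of inflamed mucosa and 4 pieces of normal mucosa, each on 1 Affymetrix Mouse Gene 1.0 ST array. The adenocarcinomas came from rectal prolapses of α6fl/fl Villin-Cre mice aged 53, 60, 60, 64 and 80 weeks (2 females and 3 males), and the inflamed mucosa lay beside the tumours in such mice aged 53, 60, 60 and 64 weeks (1 female and 3 males). In these mice a Cre recombinase driven by the villin promoter, which is active in intestinal epithelium, removes the laminin-binding integrin α6 from epithelial cells and leaves it in the other cells of the wall. The normal mucosa came from control mice aged 53, 60, 64 and 70 weeks (2 females and 2 males), although 1 label field gives these samples the genotype α6fl/fl Villin-Cre as well. Tumours and inflamed mucosa were macrodissected from frozen sections, whereas normal mucosa was scraped from the opened rectum, so genotype, disease and way of collection cannot be told apart in a comparison with normal mucosa. Levels are the deposited log2 expression values, in which 1 unit is a 2-fold change. The labels give mice of different ages and sexes, but do not say whether arrays with the same number came from 1 mouse.

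Type I interferons are secreted when a cell senses foreign nucleic acid. They bind the receptor of Ifnar1 and Ifnar2, whose kinases Jak1 and Tyk2 activate Stat2. A complex that holds Stat2 and Irf9 enters the nucleus and binds a short element, the interferon-stimulated response element, in the promoters of the genes described here. In the gut, interferon lambda acts through its own receptor, Ifnlr1 with Il10rb, mainly on epithelial cells and induces largely the same genes, so their levels do not say which interferon acted.

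Promoters are shown for Irf7, which had the smallest adjusted p against normal mucosa, and for Ddx60, which had the largest difference. Ifit1 and Oas3 are shown for the Ifit and Oas families, and Eif2ak2 as a gene that passed in none of the comparisons between tissues. Each is the 300 bases from 250 before to 50 after the transcription start, read 5′ to 3′ on the strand of the gene from RefSeq tables of GRCm38.p6. Capitals mark GAAANNGAAA, or TTTCNNTTTC where it lies on the other strand, the core of the response element. Irf7, at chr7:141266375-141266674 on the minus strand, holds no match. Ddx60, at chr8:61927837-61928136 on the plus strand, holds it starting 53 and 19 bases before the start. Ifit1, at chr19:34640639-34640938 on the plus strand, holds it on the other strand starting 104 and 85 bases before the start. Oas3, at chr5:120777610-120777909 on the minus strand, holds it 75 bases before the start. Eif2ak2, at chr17:78882523-78882822 on the minus strand, holds it 18 bases after the start.
Irf7: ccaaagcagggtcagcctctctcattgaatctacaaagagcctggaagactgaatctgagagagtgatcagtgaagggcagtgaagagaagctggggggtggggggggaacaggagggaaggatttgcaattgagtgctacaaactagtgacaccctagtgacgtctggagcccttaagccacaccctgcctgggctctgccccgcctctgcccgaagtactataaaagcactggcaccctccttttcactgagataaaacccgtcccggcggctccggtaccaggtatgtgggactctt
Ddx60: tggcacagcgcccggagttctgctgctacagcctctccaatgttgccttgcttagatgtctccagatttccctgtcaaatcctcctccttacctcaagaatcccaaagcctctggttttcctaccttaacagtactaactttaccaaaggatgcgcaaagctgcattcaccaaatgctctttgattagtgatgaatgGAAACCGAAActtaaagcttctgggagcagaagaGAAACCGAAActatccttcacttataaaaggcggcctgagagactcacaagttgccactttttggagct
Ifit1: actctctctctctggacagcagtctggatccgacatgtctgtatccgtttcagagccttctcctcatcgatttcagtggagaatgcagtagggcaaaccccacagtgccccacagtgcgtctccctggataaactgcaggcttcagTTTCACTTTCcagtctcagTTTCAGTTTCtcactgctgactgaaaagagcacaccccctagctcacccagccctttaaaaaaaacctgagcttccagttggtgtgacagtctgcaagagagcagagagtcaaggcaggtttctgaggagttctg
Oas3: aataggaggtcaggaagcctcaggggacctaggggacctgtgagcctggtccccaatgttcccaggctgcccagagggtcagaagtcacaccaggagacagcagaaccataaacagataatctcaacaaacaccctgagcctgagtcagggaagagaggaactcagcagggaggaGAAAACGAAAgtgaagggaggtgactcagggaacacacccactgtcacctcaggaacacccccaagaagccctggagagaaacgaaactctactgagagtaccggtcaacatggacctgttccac
Eif2ak2: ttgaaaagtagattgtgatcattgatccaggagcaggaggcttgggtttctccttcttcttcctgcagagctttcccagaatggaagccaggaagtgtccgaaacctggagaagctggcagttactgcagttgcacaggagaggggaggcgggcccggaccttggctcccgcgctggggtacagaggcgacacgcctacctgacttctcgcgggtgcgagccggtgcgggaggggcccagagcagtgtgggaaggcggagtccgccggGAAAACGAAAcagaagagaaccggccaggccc

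A promoter was listed for 30 of the 39 measured genes, and 13 of these 30 (43.3%) held the motif on either strand, against 1079 of 27025 genes with a promoter in the table (3.99%). The 13 were Bst2, Ddx58, Ddx60, Eif2ak2, Ifih1, Ifit1, Ifit3, Oas1a, Oas3, Rsad2, Stat2, Trim21 and Trim30a. Eif2ak2 and Bst2 thus carried the motif and passed in none of the 3 comparisons between tissues, while Irf7 and Herc6, which passed against normal mucosa, carried no match in this window. The 5 promoters shown were chosen by gene and hold the motif more often than the list does. A match is a description of letters and not evidence of binding. Several of the genes share a chromosome, though not all of these lie side by side. Oas1a, Oas2, Oas3, Oasl1 and Oasl2 lie on chromosome 5, Ifit1, Ifit2 and Ifit3 on chromosome 19, and Mx1, Mx2, Dtx3l, Parp9, Parp14 and Rtp4 on chromosome 16. Oas1a and Sp100 each have a further cluster shared with other genes, which was not used, and closely related members of the Ifit and Oas families may share signal between probes.

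The 39 genes were lowest in the adenocarcinomas, intermediate in the inflamed mucosa and highest in the normal mucosa, where single arrays differed widely. The mean log2 level of the 39 genes was 7.43, 7.35, 7.62, 8.02 and 7.18 on adenocarcinoma arrays 1, 2, 3, 4 and 6, 8.23, 8.41, 8.02 and 9.31 on inflamed arrays 1 to 4, and 10.59, 8.40, 8.73 and 9.97 on normal arrays 1, 2, 4 and 6. This gave 7.52 ± 0.32 in adenocarcinomas (SD, n = 5), 8.49 ± 0.57 in inflamed mucosa (n = 4) and 9.42 ± 1.03 in normal mucosa (n = 4). The mean of the inflamed arrays lay between the other 2 group means for all 39 genes. The 2 normal arrays from females, numbers 1 and 6, stood apart: normal mucosa 1 was the highest of the 13 arrays for 39 of 39 genes and normal mucosa 6 the second highest for 36, with inflamed mucosa 4 second for the other 3. In the inflamed group, array 4 was the highest for 36 genes and array 3 the lowest for 29. Among the tumours, array 4 was the highest for 32 genes, and array 6 was the lowest of all 13 arrays for 27. The SD over arrays was higher in normal mucosa than in adenocarcinoma for 38 of 39 genes, with median SDs of 0.35 in adenocarcinoma, 0.56 in inflamed mucosa and 0.90 in normal mucosa.

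**Figure D1:**
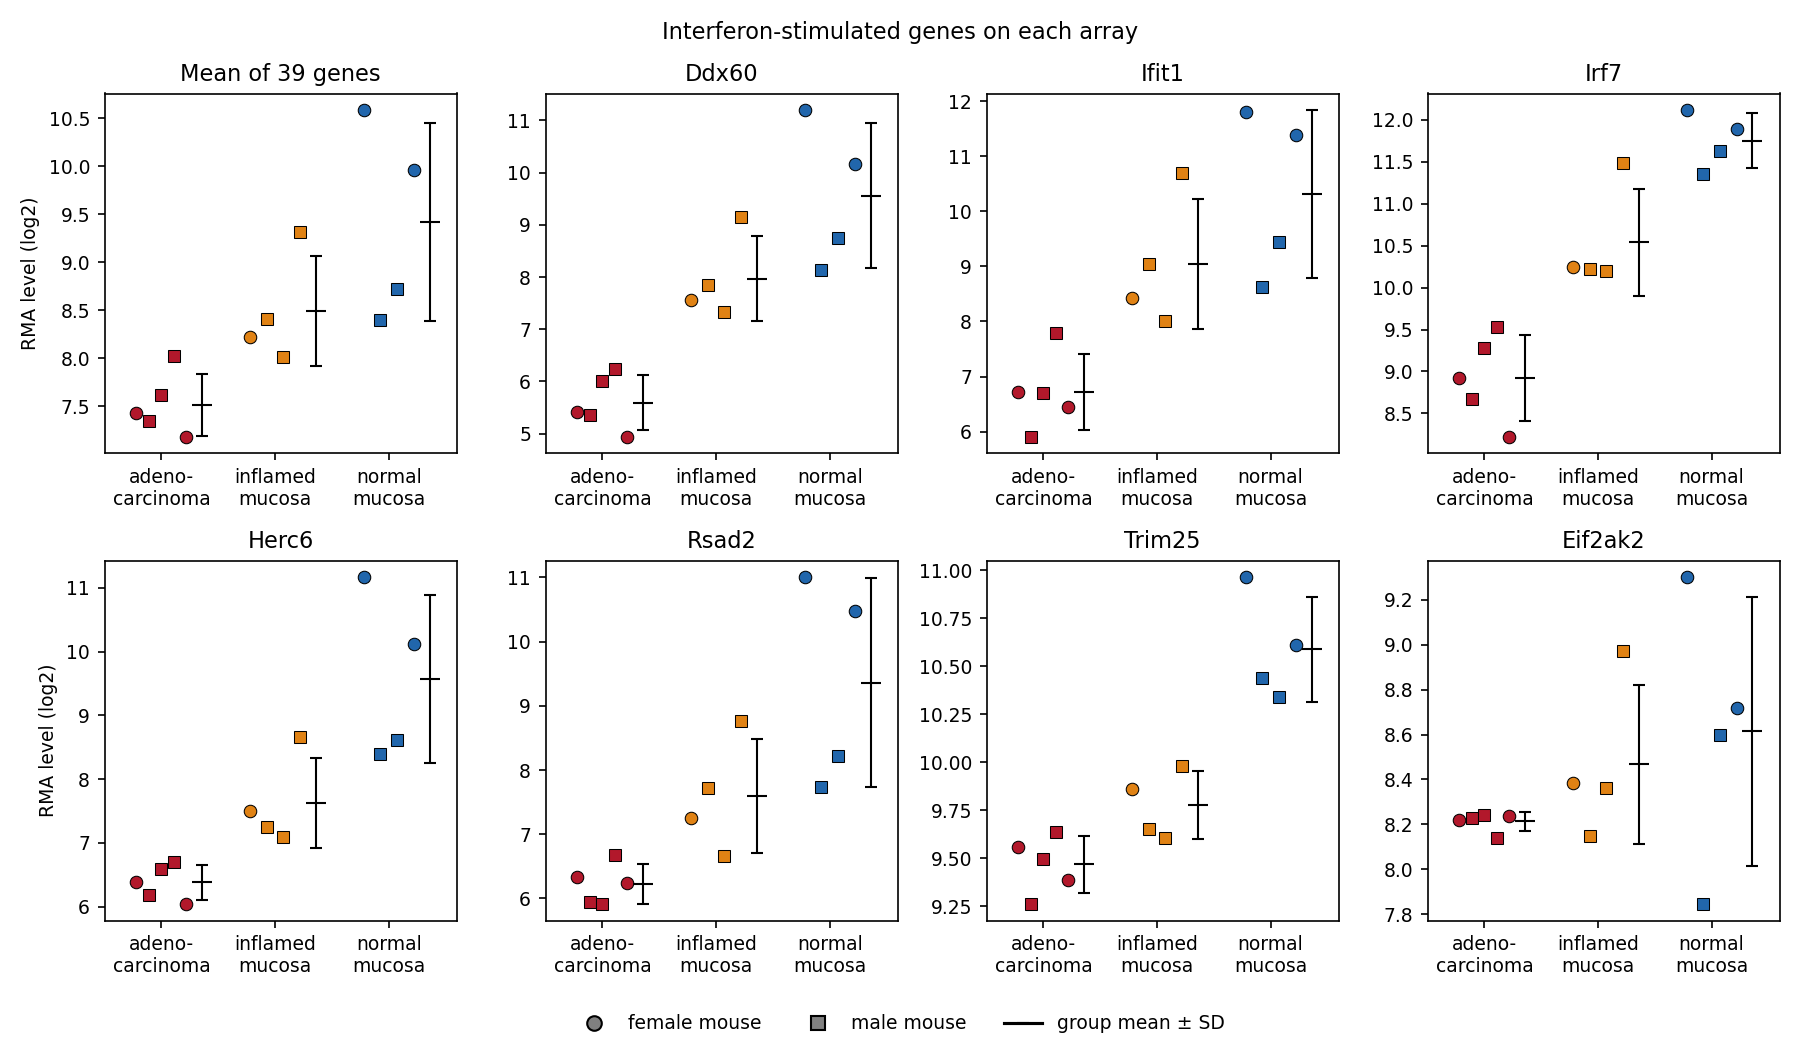
Log2 expression level on each array for the mean of the 39 genes and for 7 single genes, with adenocarcinoma, inflamed mucosa and normal mucosa from left to right. Circles are female mice, squares male mice, and the bars to the right of each group are the mean ± SD. The 2 female normal arrays are the highest in most panels, and the mean of the 39 genes lies between 7.18 and 8.02 in the tumours, with tumour 4 level with inflamed mucosa 3 at 8.02 and the other tumours below every inflamed array.

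Adenocarcinomas were compared with normal mucosa to ask what separates tumour from healthy mucosa. Of the 39 genes, 35 were lower in adenocarcinoma by limma (adjusted p below 0.05 over all 19938 genes), 31 of them by 2-fold or more, and none was higher. Over all genes tested, 19.4% were called lower and 16.4% higher in this comparison. The median difference of the 39 genes was -1.80 on the log2 scale, against -0.10 over all genes. The genes that did not pass were Eif2ak2, Bst2, Epsti1 and Lgals3bp, whose differences lay between -0.65 and -0.40. All 5 tumour arrays lay below all 4 normal arrays for 29 of the 39 genes, which held for 13.9% of all genes. In this bulk tissue, fewer cells that carry a transcript and less of it per cell cannot be told apart.

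Without the 2 female normal arrays, 22 of the 39 genes were still called lower in adenocarcinoma, all of them among the 35, against 17.1% of all genes in that fit, and the median difference was -0.95. The 13 calls that were lost were those of Ddx58, Dhx58, Stat2, Ifit2, Ifit3, Oas2, Adar, Mx1, Mx2, Usp18, Trim21, Trim30a and Ifi35. When single arrays were left out in turn, 28 to 39 genes were called, with the fewest without normal mucosa 1 and the most without normal mucosa 2. The share of all genes called was not counted in these fits, nor in the later fits that left out 1 array. The 28 genes called in all 13 of these fits leave out Ifit2, Ifit3, Mx1, Usp18, Trim21, Trim30a and Ifi35.

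The RNA and DNA sensors all fell, 4 of 4. Ifih1 encodes the sensor MDA5, which binds long double-stranded RNA in the cytoplasm. Its level was 9.05, 9.12, 9.25, 9.42 and 8.56 on the tumour arrays, against 11.55, 10.50, 10.61 and 10.83 on normal arrays 1, 2, 4 and 6, with no overlap. The difference of -1.79 ± 0.24 (SE, limma, adjusted p = 7.8e-05) remained -1.47 without the 2 female normal arrays (adjusted p = 0.00099). Zbp1, a sensor of left-handed double-stranded nucleic acid that can start cell death, fell most, with 7.12, 7.52, 7.48, 8.46 and 6.86 in tumours against 11.43, 8.74, 9.06 and 10.46 in normal mucosa (-2.43 ± 0.50, adjusted p = 0.0022). Ddx58, which encodes RIG-I, the sensor of short RNA with a triphosphate end, fell by 1.46 ± 0.42 (adjusted p = 0.016). Its tumour arrays, at 7.35 to 8.28, overlapped the lowest normal array, at 8.08, and the difference was -0.55 without the 2 female normal arrays (adjusted p = 0.21). Dhx58, which encodes LGP2, a helper of both RNA sensors, fell by 1.93 ± 0.47 (adjusted p = 0.0064), with -0.96 without the 2 female normal arrays (adjusted p = 0.065).

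All 3 signalling factors fell, and Irf7 had the smallest adjusted p of the 39 genes. Irf7 is the transcription factor that amplifies interferon gene transcription once a cell has been triggered. It stood at 8.92, 8.67, 9.28, 9.53 and 8.22 in tumours, at 10.24, 10.22, 10.19 and 11.49 in inflamed mucosa, and at 12.12, 11.36, 11.63 and 11.89 in normal mucosa. The 4 normal arrays were close together for this gene, females included, and all lay above all tumour arrays. The difference of -2.83 ± 0.30 (7.09-fold lower, adjusted p = 9.7e-06) was -2.57 without the 2 female normal arrays (adjusted p = 0.00034). Irf9 and Stat2, parts of the complex that binds the response element, fell by 1.32 ± 0.26 (adjusted p = 0.0016) and 1.35 ± 0.34 (adjusted p = 0.0081).

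Of the 11 RNA-binding effectors, 10 fell, with a median difference of -2.46. Ddx60, a helicase described as a cofactor of RIG-I, had the largest difference of the 39 genes. It was at 5.42, 5.36, 6.01, 6.25 and 4.94 in tumours, at 7.55, 7.85, 7.34 and 9.15 in inflamed mucosa, and at 11.20, 8.13, 8.75 and 10.16 in normal mucosa. The 3 groups formed steps, with every tumour array below every inflamed array and only inflamed mucosa 4 reaching above a normal array. The tumour level was 15.6-fold lower than that of normal mucosa (log2 difference -3.96 ± 0.54, adjusted p = 9.9e-05), and -2.84 on the log2 scale without the 2 female normal arrays (adjusted p = 0.00058). Of the 5 tumour arrays, 3 (both females and tumour 2) were at or below 5.57, taken here as the level of an absent transcript. It is the highest level on a female array of the Y-linked gene Kdm5d, which cannot be present there. Other absent transcripts read lower. On female arrays Eif2s3y was at 3.60 to 4.07 and Uty at 3.78 to 4.13. Xist on male arrays was at 4.75 to 5.37. The level thus differs between probe sets, and 5.57 is the highest of these values. The size of the fall of Ddx60 is thus set partly against signal not above that level and may be understated. Ifit1, which binds RNA that lacks the cap modification of the host, was at 6.71, 5.90, 6.71, 7.80 and 6.45 in tumours, against 11.81, 8.63, 9.45 and 11.39 in normal mucosa, a fall of 3.61 ± 0.66 (adjusted p = 0.00089). All tumour arrays were below all normal arrays for Ifit1, but the gap between tumour 4 and normal mucosa 2 was small beside the range within either group.

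Oas1a, Oas2 and Oas3 encode synthetases that turn double-stranded RNA into a messenger that activates the nuclease RNase L, and Oasl1 and Oasl2 are relatives of them. All 5 fell, by 1.52 to 3.20 on the log2 scale. Oas3 was at 6.19, 5.62, 6.09, 6.94 and 6.28 in tumours, against 10.89, 7.32, 8.22 and 9.84 in normal mucosa (-2.84 ± 0.61, adjusted p = 0.0027). Ifit2 and Ifit3, which join Ifit1 in a complex, followed the 2 female normal arrays most closely. Ifit2 was at 5.39, 5.85, 6.11, 6.53 and 5.66 in tumours, against 11.33, 6.25, 6.16 and 9.74 in normal mucosa, so the normal arrays of males lay within the range of the tumours. The difference of -2.46 ± 0.85 (adjusted p = 0.038) was no longer called without normal mucosa 1 (-1.48, adjusted p = 0.099), without normal mucosa 6 (-2.01, adjusted p = 0.099), and without any of tumours 1, 2, 3 and 6. Eif2ak2, which encodes the kinase PKR that stops translation when it binds double-stranded RNA, was nearly flat. Its level was 8.14 to 8.24 over the 5 tumours, against 9.30, 7.84, 8.60 and 8.72 in normal mucosa (-0.40 ± 0.23, adjusted p = 0.17). Adar, which edits adenosine to inosine in double-stranded RNA, fell by 0.61 ± 0.16 (adjusted p = 0.011), with -0.27 without the 2 female normal arrays (adjusted p = 0.11).

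Among the 6 genes that act on virus particles or their replication, 5 fell and Bst2, the tether of budding virus, did not pass (-0.63 ± 0.26, adjusted p = 0.067). Rsad2, which encodes viperin, an enzyme that makes a chain-terminating nucleotide, was at 6.33, 5.94, 5.92, 6.67 and 6.23 in tumours, against 11.01, 7.74, 8.22 and 10.48 in normal mucosa (-3.14 ± 0.59, adjusted p = 0.0012). Its neighbour Cmpk2, a nucleotide kinase, fell by 2.33 ± 0.55 (adjusted p = 0.0054). Both genes showed the same layout, with tumours low and close together and the normal arrays of females above those of males. Mx1 and Mx2 encode dynamin-like GTPases that trap viral nucleocapsids. Mx1 stood at 4.83 to 5.18 in tumours, against 8.75, 5.45, 5.34 and 8.27 in normal mucosa (-1.93 ± 0.59, adjusted p = 0.021). For Mx1 and Mx2 all 5 tumour arrays and both male normal arrays were at or below the level of an absent transcript. The size of the fall may thus be understated, and a fall in males could not be told from background by that level. The differences in males were -0.37 ± 0.22 for Mx1 and -0.46 ± 0.23 for Mx2 (limma, adjusted p = 0.22 and 0.15). Beside these genes and Ddx60, Ifit2 was below that level on 1 tumour array, and the other 35 genes were above it on every array.

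The ISG15, ubiquitin and ADP-ribose genes all fell, 9 of 9. Herc6, the ligase that attaches ISG15 to proteins in the mouse, was at 6.39, 6.18, 6.59, 6.71 and 6.04 in tumours, against 11.17, 8.39, 8.61 and 10.12 in normal mucosa (-3.19 ± 0.48, adjusted p = 0.00022). The tumour range of Herc6 did not come near the normal range, and the difference was -2.12 without the 2 female normal arrays (adjusted p = 0.00066). Uba7, the enzyme that activates ISG15, fell by 0.90 ± 0.16 (adjusted p = 0.00064), and Usp18, which removes ISG15 and damps the receptor, fell by 2.35 ± 0.77 (adjusted p = 0.031). Trim25, the ubiquitin ligase that acts on RIG-I, differed by less but with little spread, at 9.56, 9.26, 9.50, 9.64 and 9.39 in tumours against 10.96, 10.44, 10.34 and 10.61 in normal mucosa (-1.12 ± 0.13, adjusted p = 2.3e-05). Parp9 and Dtx3l, which work as a pair, fell by 1.41 ± 0.27 and 1.59 ± 0.29 (adjusted p = 0.0012 and 0.00096). Trim21, an antibody receptor of the cytoplasm, had the smallest fall of this group, 0.74 ± 0.23 (adjusted p = 0.024), and lost its call without either female normal array and without tumours 2 or 6.

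Of the 6 other induced genes, 4 fell. Rtp4, a chaperone that helps some receptors reach the cell surface, fell by 2.95 ± 0.60 (adjusted p = 0.002), and Sp100, a component of nuclear bodies, by 2.71 ± 0.37 (adjusted p = 9.2e-05). Sp100 was at 7.05, 7.20, 7.83, 8.05 and 6.65 in tumours, at 8.60, 8.80, 8.60 and 9.87 in inflamed mucosa, and at 10.93, 9.38, 9.55 and 10.38 in normal mucosa. Its tumour arrays lay below all inflamed arrays, and all inflamed arrays but number 4 lay below all normal arrays. Xaf1, which promotes cell death, fell by 2.19 ± 0.44 (adjusted p = 0.0019). Epsti1 and the secreted glycoprotein gene Lgals3bp gave differences of -0.65 ± 0.25 (adjusted p = 0.054) and -0.60 ± 0.24 (adjusted p = 0.063).

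**Figure D2:**
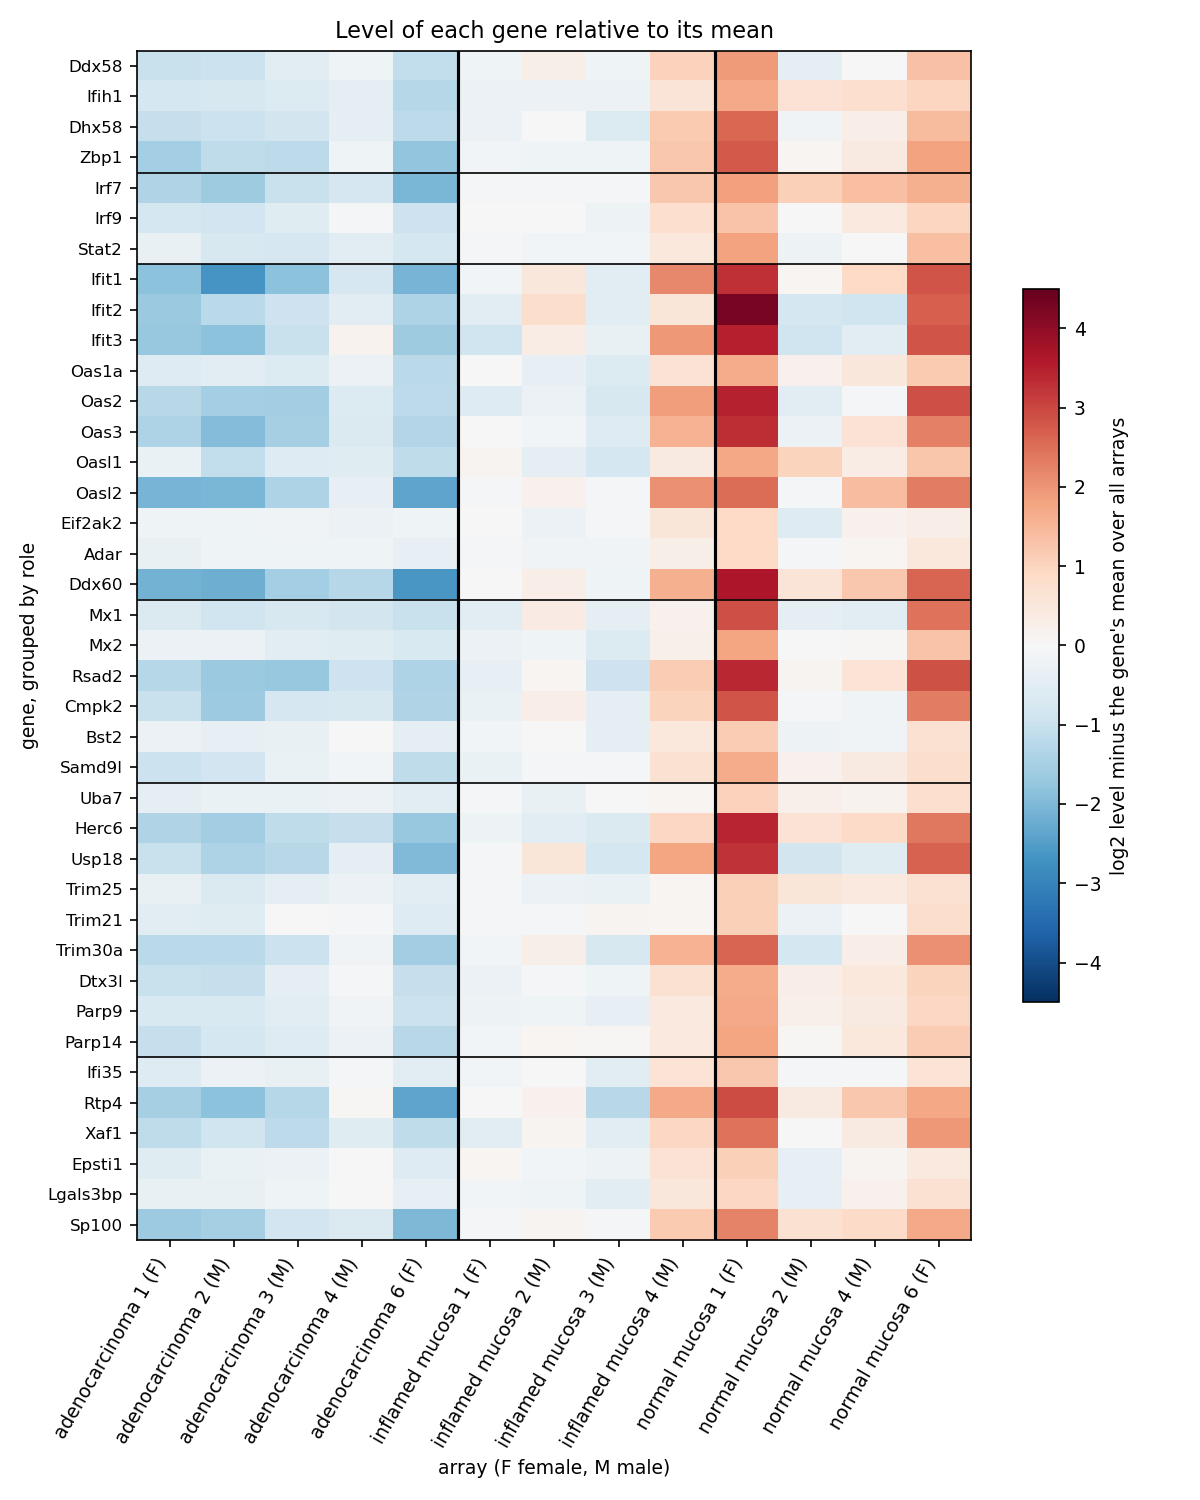
Heat map of the 39 genes, grouped by role, on the 13 arrays, with adenocarcinoma, inflamed mucosa and normal mucosa from left to right. The colour is the log2 level minus the mean of the gene over all arrays, red above and blue below that mean, and F and M give the sex. The columns of normal mucosa 1 and 6 are red for nearly every gene, and inflamed mucosa 4 is the reddest of its group.

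Inflamed mucosa was compared with normal mucosa to ask what the prolapsed tissue shows outside the tumour. Of the 39 genes, 9 were lower in inflamed mucosa and none was higher, against 13% of all genes called lower and 13.7% called higher. The 9 were Ifih1, Irf7, Oas1a, Oasl1, Mx2, Uba7, Herc6, Trim25 and Parp9. For Mx2, all 4 inflamed arrays and the 2 male normal arrays were at or below the level of an absent transcript. Its call thus sets the 2 female normal arrays against signal not above that level. The median difference was -0.98, against -0.09 over all genes. Every inflamed array lay below every normal array for 3 genes, Ifih1, Uba7 and Trim25, a pattern that 15.5% of all genes showed. Without the 2 female normal arrays, 1 of the 39 was called lower, Trim25 (-0.61, adjusted p = 0.0069), against 12.3% of all genes, and the median difference was -0.07. Differences above 0 were then found for 18 of the 39 genes, none of them called. When single arrays were left out, 5 to 18 genes were called, and Ifih1, Irf7, Oasl1, Herc6 and Trim25 were called in all 13 such fits.

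Trim25 was at 9.86, 9.65, 9.61 and 9.98 in inflamed mucosa, against 10.96, 10.44, 10.34 and 10.61 in normal mucosa (-0.81 ± 0.14, adjusted p = 0.0008). Herc6 was at 7.51, 7.25, 7.08 and 8.66 in inflamed mucosa, against 11.17, 8.39, 8.61 and 10.12 in normal mucosa (-1.95 ± 0.51, adjusted p = 0.013). Only inflamed mucosa 4 reached above the 2 male normal arrays for Herc6. Irf7 fell by 1.21 ± 0.31 (adjusted p = 0.012) and Ifih1 by 1.07 ± 0.25 (adjusted p = 0.0073). Ddx60 and Rsad2 had large differences that did not pass, -1.59 ± 0.57 (adjusted p = 0.054) and -1.76 ± 0.63 (adjusted p = 0.052). Usp18 shows how these values hang on single arrays. It was at 8.36, 8.95, 7.62 and 10.19 in inflamed mucosa, against 11.64, 7.57, 7.88 and 11.07 in normal mucosa, so the inflamed arrays lay between the male and the female normal arrays or overlapped the males. Inflamed mucosa 4 was above both male normal arrays for 33 of the 39 genes, whereas the other 3 inflamed arrays were below both of them for 18. The shares of all genes with these patterns were not counted, so neither count can be set against a background.

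Adenocarcinomas were compared with inflamed mucosa to ask what changes between the tumour and the tissue around it, both collected from sections in the same way. Of the 39 genes, 5 were lower in adenocarcinoma, Irf7, Ifit1, Oasl2, Ddx60 and Sp100, and none was higher, against 4.21% of all genes called lower and 2.91% called higher. The median difference was -0.89, against -0.01 over all genes, and all 39 differences were negative. All 5 tumour arrays lay below all 4 inflamed arrays for 15 of the 39 genes, which held for 6.51% of all genes. This comparison and the one of tumour with normal mucosa share the tumour arrays, so the values of both are not independent.

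The tumour and inflamed arrays of 1 number were taken as pairs by sex and age, an assumption that the labels do not settle. In a fit of those 4 pairs alone with the pair as a block, 26 of the 39 genes were lower in adenocarcinoma, the 5 above among them, against 5.89% of all genes, with a median difference of -0.78. With the number as a block over all 13 arrays, which also joins the normal arrays of that number, the count was 4. The share of all genes called in that fit was not counted. Over the 39 genes, the mean difference within pairs 1, 2, 3 and 4 was -0.80, -1.06, -0.40 and -1.29. The tumour was below its partner in all 4 pairs for 31 of the 39 genes, a pattern that 16.8% of all genes showed. The exceptions were Oas1a, Oasl1, Eif2ak2, Mx2, Bst2, Uba7, Ifi35 and Lgals3bp.

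Irf7 fell by 1.62 ± 0.30 against inflamed mucosa (adjusted p = 0.0048), and within the 4 pairs by 1.32, 1.55, 0.92 and 1.96. It kept its call in all 13 fits that left out 1 array. Ddx60 fell by 2.38 ± 0.54, which is 5.20-fold (adjusted p = 0.017), and its pairs gave falls of 2.14, 2.48, 1.33 and 2.90. Sp100 fell by 1.61 ± 0.37 (adjusted p = 0.016), Oasl2 by 2.18 ± 0.57 (adjusted p = 0.034) and Ifit1 by 2.33 ± 0.66 (adjusted p = 0.048). Each of these 4 calls was lost without inflamed mucosa 4. Without that array 1 of the 39 genes was called, Irf7, and Ddx60 gave -1.99 (adjusted p = 0.061), Sp100 -1.31 (adjusted p = 0.058), Oasl2 -1.67 (adjusted p = 0.11) and Ifit1 -1.78 (adjusted p = 0.15). Ifit1 lost its call in 8 of the 13 such fits, and Oasl2 in 5, which also left out tumours 1, 2 or 6 or inflamed mucosa 2. All 4 passed in the fit of the 4 pairs alone. No gene of the virus-restricting group or of the ISG15 and ubiquitin group passed in the fit of all 13 arrays, with differences from -0.25 for Mx2 to -1.59 for Usp18. In the fit of the 4 pairs alone, 3 of the 6 virus-restricting genes passed (Rsad2, Cmpk2 and Samd9l) and 6 of the 9 in the other group (Herc6, Usp18, Trim30a, Dtx3l, Parp9 and Parp14).

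**Figure D3:**
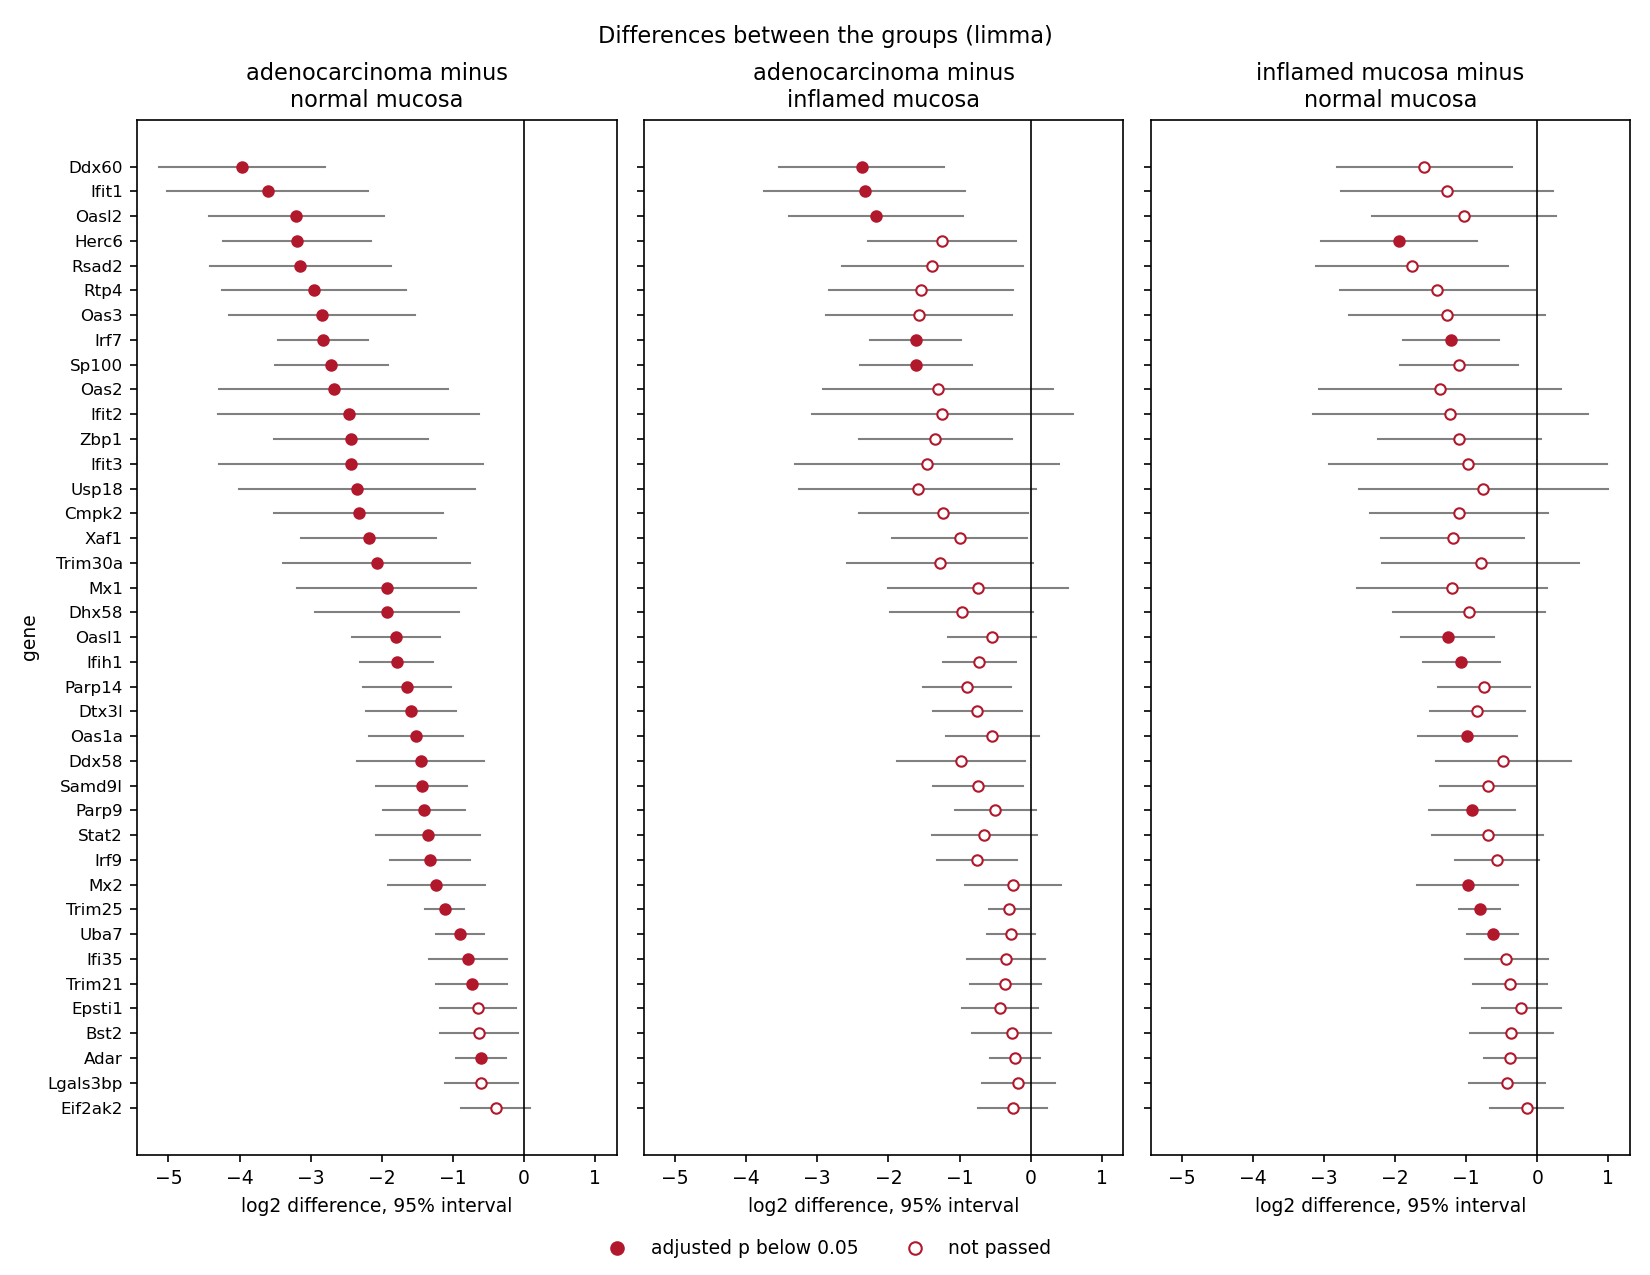
Log2 differences of the 39 genes with their 95% intervals from limma, for adenocarcinoma minus normal mucosa, adenocarcinoma minus inflamed mucosa and inflamed minus normal mucosa, ordered by the first. Filled points passed at an adjusted p below 0.05, which were 35, 5 and 9 genes, and every point lies left of 0.

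The labels give the sex of every mouse, and the normal arrays were therefore also compared by sex, in a fit with a mean for each group and sex. The pattern was known from earlier work on these arrays, and each sex has 2 normal arrays. All 39 genes were higher on both female normal arrays than on both male normal arrays, which held for 9.28% of all genes. By limma, 4 of the 39 passed as higher in females, Stat2, Ifit2, Mx1 and Cmpk2, against 0.115% of all genes. An unadjusted p below 0.05 was found for 35, and the share of all genes at that threshold was not counted. The median female minus male difference was 1.52, against -0.05 over all genes, with a range from 0.40 for Trim25 to 4.33 for Ifit2. Leaving out single arrays gave 1 to 16 calls, with 1 without normal mucosa 2 or 4, 2 without normal mucosa 1 and 16 without normal mucosa 6.

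Mx1 was at 8.75 and 8.27 in female normal mucosa, against 5.45 and 5.34 in male normal mucosa (3.12 ± 0.24, adjusted p = 0.00029), with both male values at or below the level of an absent transcript. Ifit2 was at 11.33 and 9.74 in female normal mucosa, against 6.25 and 6.16 in male normal mucosa (4.33 ± 0.49, adjusted p = 0.0071). For both genes the male normal arrays were within 1 unit of the tumour arrays of either sex. Irf7 differed least among the signalling factors, at 12.12 and 11.89 in females against 11.36 and 11.63 in males (0.51 ± 0.42, adjusted p = 0.86).

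In adenocarcinomas the female minus male differences were of the other sign for most genes, with a median of -0.35. None passed, in either direction, against 0.015% of all genes called lower in females. An unadjusted p below 0.05 was found for 2 of the 39, with the share of all genes not counted. The 2 female tumours came from mice of 53 and 80 weeks and were below all 3 male tumours for 16 of the 39 genes. The share of all genes with that split was not counted, so it cannot be said whether 16 is many.

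Within females, 38 of the 39 genes were lower in adenocarcinoma than in normal mucosa, all but Eif2ak2, against 6.42% of all genes, with a median difference of -2.68. Both female tumour arrays lay below both female normal arrays for all 39 genes, which held for 26.5% of all genes. Within males, 13 of the 39 were lower, against 17.4% of all genes, with a median difference of -0.82. The 13 were Ifih1, Irf7, Ifit1, Oasl1, Oasl2, Ddx60, Rsad2, Uba7, Herc6, Trim25, Parp14, Xaf1 and Sp100. The male tumours all lay below both male normal arrays for 29 of the 39 genes, against 40.7% of all genes. For the counts that follow, the share of all genes called in the same fit was not counted. Leaving out single arrays gave 5 to 15 calls within males, with 5 without normal mucosa 2, 6 without tumour 2, 7 without tumour 3 and 8 without normal mucosa 4.

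Ddx60 fell by 5.50 in females and by 2.57 in males (adjusted p = 0.00016 and 0.0044), with both female tumours and 1 male tumour at or below the level of an absent transcript. Irf7 fell by 3.44 in females and by 2.33 in males (adjusted p = 0.00051 and 0.0019). Ifit2 fell by 5.01 in females (adjusted p = 0.00015), whereas its difference in males was -0.04 ± 0.45 (adjusted p = 0.95). The difference between the sexes was tested for each gene. Mx1 alone passed, with a female minus male value of -3.14 ± 0.33, a larger fall in females (adjusted p = 0.027), and it was the 1 gene called in that direction among all genes tested, 0.00502%. All 5 male arrays of this contrast were at or below the level of an absent transcript for Mx1. Its male difference of -0.37 could thus not be told from background by that level. The test sets the fall in females against signal not above it. Of the 39, 34 had an unadjusted p below 0.05, for which the share of all genes was not counted. The median of the 39 was -1.77, against 0.08 over all genes. The Mx1 call was lost when arrays were centred on their medians and without tumours 2, 3, 4 or 6 or normal mucosa 2 or 4.

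**Figure D4:**
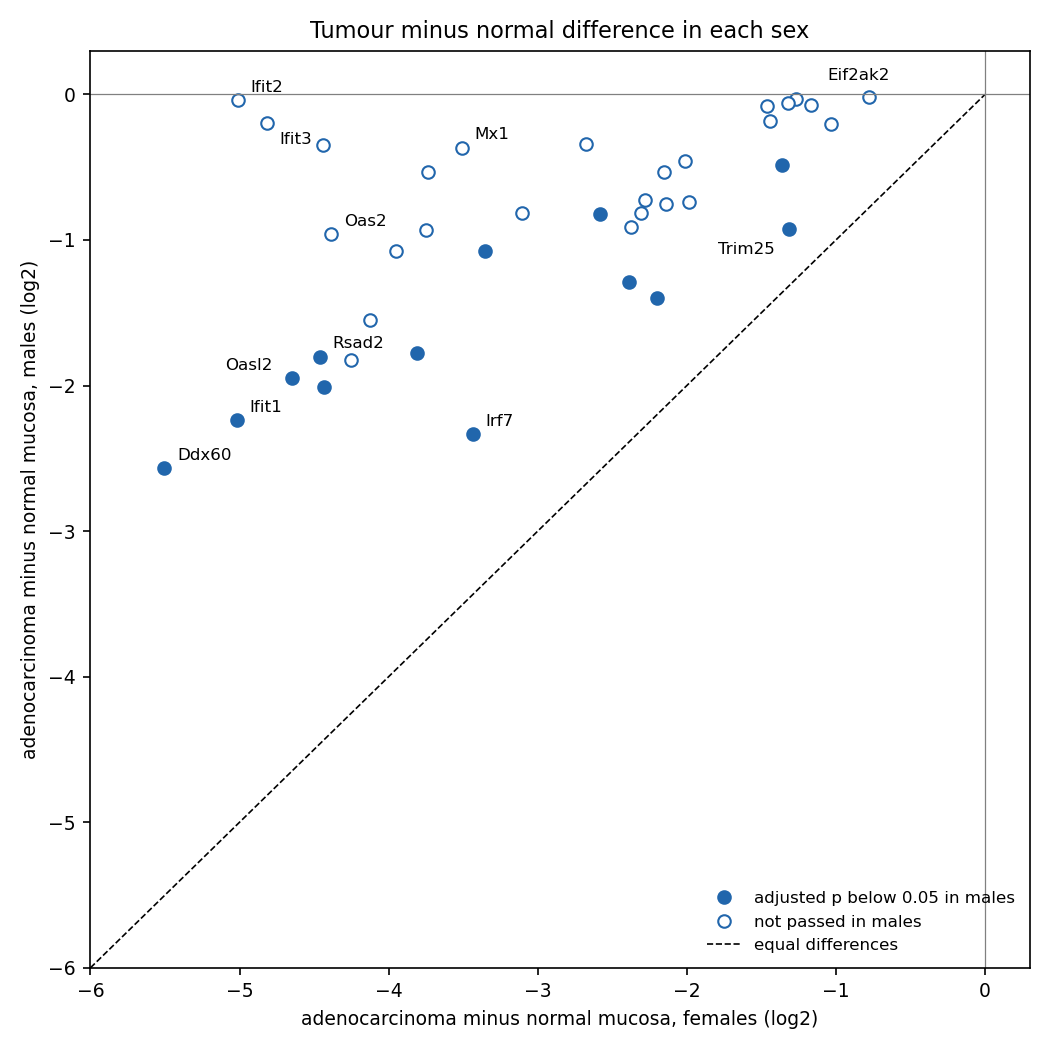
Adenocarcinoma minus normal mucosa in females, on the horizontal axis, against the same difference in males, on the vertical axis, for the 39 genes (log2). Filled points passed in males, and the dashed line marks equal differences. All 39 genes lie above the line, with the differences in females from -5.50 to -0.78 and in males from -2.57 to -0.02.

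The other genes of the pathway, taken from fixed lists, did not move as one. Over all genes, 19.4% were called lower and 16.4% higher in adenocarcinoma than in normal mucosa. The shares were 13% and 13.7% in inflamed against normal mucosa, and 4.21% and 2.91% in adenocarcinoma against inflamed mucosa. Of 15 measured interferon genes, 6 were lower in adenocarcinoma than in normal mucosa and none was higher, but 7 of the 15 had a mean at or below the level of an absent transcript and 6 were there on all 13 arrays. The falls were small, such as 0.29 for Ifnb1 (adjusted p = 0.042) and 0.37 for Ifnl2 (adjusted p = 0.04). In inflamed against normal mucosa 3 were lower and none higher, and none passed in adenocarcinoma against inflamed mucosa.

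Among 14 measured receptor and signalling genes, 5 were lower and 2 higher in adenocarcinoma than in normal mucosa. Ifnar2, a chain of the type I receptor, was higher by 2.08 (adjusted p = 0.00024), whereas Ifnar1 gave 0.24 (adjusted p = 0.066). The Ifngr1 and Ifngr2 chains of the interferon gamma receptor fell by 1.01 and 0.40, and Il10rb, a chain of the lambda receptor, by 0.70. Ifnlr1, the other chain of the lambda receptor, gave -0.29 (adjusted p = 0.051). Socs3, a feedback inhibitor of cytokine receptors, was higher by 1.24 (adjusted p = 0.0016). Inflamed against normal mucosa gave 4 lower and 1 higher of the 14, with Ifnar2 higher by 2.19. Adenocarcinoma against inflamed mucosa gave none lower and 1 higher, Socs3 (1.09, adjusted p = 0.016).

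Of 13 measured genes that sense nucleic acid or relay the signal upstream of interferon, 4 were lower and 1 higher in adenocarcinoma than in normal mucosa. The adaptor Ticam1 fell by 1.26, the kinase Tbk1 by 0.58 (adjusted p = 0.0023), the receptor Tlr3 by 0.81 (adjusted p = 0.011) and the adaptor Mavs by 0.56 (adjusted p = 0.026), while the adaptor Sting1 was higher by 0.95 (adjusted p = 0.007). Inflamed against normal mucosa gave 2 lower and 2 higher of the 13, beside 13% and 13.7% of all genes. Adenocarcinoma against inflamed mucosa gave 2 lower and none higher.

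Of 30 further genes known to be induced by interferon, 12 were lower and 2 higher in adenocarcinoma than in normal mucosa. Parp12 fell by 1.85 and Tor3a by 1.43, whereas the membrane proteins Ifitm1 and Ifitm2, which block virus entry, were higher by 1.93 (adjusted p = 0.0016) and 0.65 (adjusted p = 0.014). Inflamed against normal mucosa gave 8 lower and 2 higher, and adenocarcinoma against inflamed mucosa 2 lower, Parp12 and Tor3a. Within females, adenocarcinoma against normal mucosa gave 19 lower and none higher (median -1.09), against 6.42% of all genes called lower. Within males it gave 6 lower and 5 higher (median 0.14), against 17.4% of all genes called lower. The share of all genes called higher within each sex was not counted. The median female minus male difference in normal mucosa was 1.18. It was -0.03 for the interferon genes, -0.04 for the receptor and signalling genes and 0.28 for the upstream genes. Of the 15 interferon genes, 0 were lower in adenocarcinoma within females and 4 within males. The receptor and signalling genes gave 3 and 4 lower of 14, and the upstream genes 4 and 1 lower of 13. Of 15 measured targets of interferon gamma, 8 were lower in adenocarcinoma than in normal mucosa and none higher, among them Irf1 (-1.31, adjusted p = 0.0003) and the tryptophan-degrading enzyme Ido1 (-2.57, adjusted p = 0.012). The counts were 2 lower in inflamed against normal mucosa and 1 lower in adenocarcinoma against inflamed mucosa, with none higher in either. Adenocarcinoma against normal mucosa gave 11 of the 15 lower within females (median -2.03) and 2 lower within males (median -0.19), and 2 were higher in female than in male normal mucosa.

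Markers of other cell types moved with the groups. The shares over all genes beside their counts are those given above for each comparison. Mature colonocyte markers, a list of 6, had a mean level of 8.05 to 9.61 in tumours, 11.20 to 11.39 in inflamed mucosa and 12.39 to 12.71 in normal mucosa, and 6 of 6 were lower in adenocarcinoma than in normal mucosa. General epithelial markers, a list of 8, were at 12.13 to 12.22 in tumours, 11.94 to 12.12 in inflamed mucosa and 12.14 to 12.27 in normal mucosa, with 2 lower and 1 higher in adenocarcinoma and 3 lower in inflamed than in normal mucosa. Smooth muscle markers, a list of 5, were at 9.02 to 9.31 in tumours, 11.02 to 12.07 in inflamed mucosa and 6.40 to 8.41 in normal mucosa. All 5 were higher in adenocarcinoma than in normal mucosa, and 4 of 5 were lower in adenocarcinoma than in inflamed mucosa. Neutrophil markers were at 8.54 to 10.08 in tumours, 7.04 to 7.37 in inflamed mucosa and 6.79 to 8.01 in normal mucosa, with 5 of 6 higher in adenocarcinoma than in either other tissue. Fibroblast markers were higher in 5 of 5 and endothelial markers in 4 of 4 in adenocarcinoma than in normal mucosa, and the same counts were found in inflamed against normal mucosa. Macrophage markers were higher in 8 of 9 in adenocarcinoma than in normal mucosa. B and plasma cell markers were higher in 2 of 5 in adenocarcinoma and in 5 of 5 in inflamed mucosa than in normal mucosa. Macrophage markers were at 8.32 to 9.08 in tumours, 8.83 to 9.22 in inflamed mucosa and 6.97 to 8.09 in normal mucosa.

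Normal mucosa 1 also stood apart in immune markers. The mean of 7 T and NK cell markers was 7.75 on that array, against 6.08, 5.90 and 5.84 on normal arrays 2, 4 and 6, and 7 plasmacytoid dendritic cell markers were at 7.18, against 6.56, 6.40 and 6.44. Normal mucosa 6, the other array with high interferon-stimulated genes, was not raised in these 2 lists. It had the highest normal level of smooth muscle (8.41), fibroblast (8.40), endothelial (6.48) and B and plasma cell (7.32) markers. On normal arrays 1, 2 and 4 the B and plasma cell markers were at 7.21, 6.36 and 6.56. Macrophage markers were at 8.09, 7.04, 6.97 and 7.40 on normal arrays 1, 2, 4 and 6. Neutrophil markers were at 8.01, 6.88, 6.79 and 6.80 on these arrays. The interferon gamma targets were at 9.96, 7.46, 7.44 and 8.18 on the same arrays. Plasmacytoid dendritic cells are strong producers of type I interferon. Of their 7 markers, 1 was lower and 1 higher in adenocarcinoma than in normal mucosa, and 1 was at the level of an absent transcript on all 13 arrays. The part of any of these cell types in the differences was not tested.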

How the data were processed

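Levels come from 13 Affymetrix Mouse Gene 1.0 ST arrays, 1 for each RNA sample. The authors deposited log2 values per transcript cluster, made by RMA in Affymetrix Expression Console 1.1 from scans processed with Affymetrix GeneChip Command Console 2.0, per the submitters' processing notes and the design text, which also name Partek without a role. RMA brings arrays to a common distribution, which removes differences in total RNA and compresses differences of dim genes. Array medians were 6.41 to 6.59, and correlations between arrays 0.943 to 0.990.

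Of 35556 clusters, 21789 name 1 gene, 1621 several, and 12146 are not listed in the annotation of 2016. Keeping the cluster with the highest mean gave 19938 genes. Of the clusters that name 1 gene, 21698 had a gene identifier that matched RefSeq tables of GRCm38.p6. limma 3.58.1, run under R 4.3.3, fitted a mean per group to all genes and, in a second model, a mean per group and sex. Moderated tests and Benjamini-Hochberg adjustment over all genes followed, with a threshold of 0.05. In these fits all groups shared 1 estimate of the spread per gene, although the SD was higher in normal mucosa than in adenocarcinoma for 38 genes. An SE thus need not match the spread of the 2 groups compared. The test of adenocarcinoma against inflamed mucosa also takes in the spread of the normal arrays. The number of arrays limits the precision.

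The genes, role groups, pathway lists and marker lists were chosen with earlier results of these data known. Genes named with every array value have the 2 largest or 2 smallest differences of their role group, except Ifit2, Oas3, Mx1 and Trim25 and, in inflamed against normal mucosa, Usp18, which were chosen after their values were seen. Tumour and inflamed arrays of 1 number share sex and age in the labels and were taken as pairs, which is an assumption. Once group means were removed, their levels correlated at 0.319, 0.198, 0.199 and 0.387. Correlations between arrays of different numbers were not computed, so these values do not show that the pairing is right. Numbers 2 and 3 are males of 60 weeks in both tissues, so sex and age do not fix their partners. With the number as a random block over all 13 arrays, the correlation was 0.031. Alternatives covered scaling, filters, clusters, covariates, replicate blocks, the variance model and leaving out each array. Leaving out both female normal arrays, and the 4 pairs alone, were chosen after seeing the data.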

Additional observations from a re-analysis of the deposited data

Results flagged for a closer look

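Single arrays stood far from the rest of their group for 8 of 120 combinations (the 39 genes and their mean, each in 3 groups) tested with Dixon's ratio at its 95% critical value, where chance flags about 1 in 20. In 7 of these 8 the array was inflamed mucosa 4, which lay above the other inflamed arrays: at 10.44 for Ifih1, 9.87 for Zbp1, 11.49 for Irf7, 9.51 for Stat2, 11.53 for Oasl2, 8.85 for Adar and 9.87 for Sp100. The genes move together, so these are not 7 separate observations. The other was Eif2ak2 in adenocarcinoma 4, which was the lowest of 5 tightly grouped tumours at 8.14. Mx1 was the 1 gene whose adenocarcinoma minus normal difference differed between the sexes by the test of that difference, at -3.14 on the log2 scale, a larger fall in females (limma, adjusted p = 0.027, n = 2 and 2 females, 3 and 2 males). All 5 male arrays were at or below 5.57 for this gene, the level of an absent transcript. The male difference could thus not be told from background by that level. The value sets the fall in females against signal not above it.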

How the results depend on the processing

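The direction of the median difference over the 39 genes was the same under every alternative run in each comparison. Without normal mucosa 1 and 6 together, a setting chosen after seeing the data, 22 in place of 35 genes were lower in adenocarcinoma than in normal mucosa (median -0.95) and 1 in place of 9 in inflamed than in normal mucosa (median -0.072). In that last comparison 18 genes changed sign, none of them called: Ddx58 at 0.43, Dhx58 0.013, Stat2 0.16, Ifit1 0.0085, Ifit2 0.94, Ifit3 0.96, Oas2 0.35, Oas3 0.030, Eif2ak2 0.25, Mx1 0.36, Cmpk2 0.24, Bst2 0.19, Usp18 1.06, Trim21 0.14, Trim30a 0.50, Ifi35 0.040, Epsti1 0.22 and Lgals3bp 0.025. Leaving out single arrays gave -0.40 to 0.081 for Eif2ak2 and -0.45 to 0.029 for Epsti1 there, above 0 without normal mucosa 1, and -0.31 to 0.021 for Lgals3bp in adenocarcinoma against inflamed mucosa, above 0 without inflamed mucosa 4. The count of 5 for adenocarcinoma against inflamed mucosa was 3 with every transcript cluster tested, with age as a covariate and with an intensity trend and robust prior, 15 with the 2 groups alone, 4 with the fixed replicate block and 26 with the pair as a block in the 4 pairs alone. With the fixed replicate block over all arrays, 31 genes were lower in adenocarcinoma and 6 in inflamed mucosa against normal mucosa. That block joins normal arrays from control mice with the other arrays of the same number. The replicate block changed no other count by over 1.5 times. For the counts of 3, 15, 4, 31 and 6 the share of all genes called in the same fit was not counted. A change in them thus need not be particular to these genes. With arrays centred on their medians, 2 genes were higher in female than in male normal mucosa and 0 differed between the sexes in the tumour minus normal difference, and 2 did so without the genes below the 25th percentile of mean level. The causes were not tested.

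The share of all genes called was not counted in the fits that left out 1 array, so their ranges need not be particular to these genes. Leaving out each array in turn gave 28 to 39 genes lower in adenocarcinoma than in normal mucosa. It gave 5 to 18 in inflamed against normal mucosa, with 5 without inflamed mucosa 2, 18 without normal mucosa 2 and 15 without inflamed mucosa 4 or normal mucosa 4. It gave 1 to 8 in adenocarcinoma against inflamed mucosa, with 8 without normal mucosa 1 and 3 without tumours 1, 2 or 6 or inflamed mucosa 2. By sex it gave 1 to 16 higher in female than in male normal mucosa, 5 to 15 lower in adenocarcinoma within males, 32 to 38 within females and 0 to 9 for the difference between the sexes, with 9 without normal mucosa 6. Where this left a single array of a group and sex, that array was taken to vary like the others. No background measure per probe was used, so dim genes are limited only by the level of absent transcripts.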
